A study of Homo sapiens with 13 samples.

Results

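CCND1 encodes cyclin D1, the regulatory subunit that activates the kinases CDK4 and CDK6 in G1 phase. The active complexes phosphorylate the retinoblastoma protein and so allow entry into S phase, and the gene is often amplified or overexpressed in breast cancer. The CCND1 locus is taken here as all listed peaks with the summit within 250 kb of the hg19 start of the gene (chr11:69455873, plus strand). This rule found 50 of the 50467 peaks in the 4 lists: 11 of the 7709 YAP peaks, 11 of the 9798 TAZ peaks, 10 of the 8406 TEAD4 peaks and 18 of the 24554 JUN peaks. Joined where they overlapped by at least 1 bp, the 50 peaks formed 22 of the 28100 merged regions of the genome. Position alone chose the peaks, but the locus was proposed because it holds a strong site shared by all 4 lists. The values of that site are therefore a description, and no test was run on any peak of the locus.

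The peaks came from chromatin immunoprecipitation and sequencing (ChIP-seq) of MDA-MB-231, a human basal-like breast cancer cell line, grown in serum-containing medium with no treatment or genetic change named in the labels. The 13 libraries comprised 2 replicates each for YAP, TAZ (the product of WWTR1), TEAD4 (precipitated with an antibody labelled TEF-3) and JUN, with 2 rabbit IgG and 3 mouse IgG controls. The labels of both replicates of a factor name the same list, so no value below has a spread between replicates, and read depth is unknown here. Differences between peaks could therefore not be set against replicate error.

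YAP and TAZ are the transcriptional coactivators restrained by the Hippo pathway. They do not bind DNA themselves and are brought to it mainly by TEAD proteins, of which TEAD4 is a member. JUN is a subunit of AP-1, a dimeric factor that binds its own short DNA motif and is known for driving growth genes, cyclin D1 among them. ChIP-seq shows where these proteins sit, not which gene a site acts on. In the RefSeq gene table (GRCh38.p14, used for gene order only) the protein-coding neighbours of CCND1 are MYEOV and then SMIM38 on the upstream side and LOC124902704, LTO1, FGF19, FGF4 and FGF3 on the other. No expression or contact data were analysed here, so the sites are named by their distance from the CCND1 start and are not assigned to a gene.

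The promoter itself held no listed peak. No summit of any list lay within 1 kb of the CCND1 start, and no peak of any list covered the start. How often listed peaks fall within 1 kb of a gene start genome-wide was not computed. The nearest site lay 2.1 kb upstream (chr11:69453126-69454220) and held YAP, TAZ and TEAD4. Its YAP peak had a fold enrichment over IgG of 8.01, its TAZ peak 5.99 and its TEAD4 peak 7.07. These enrichments are the authors' own value per peak and are read only against other peaks of the same list. The edge of the YAP peak stopped 1653 bp short of the start.

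A stronger site followed 4.4 kb upstream (chr11:69450961-69451761), again with YAP (10.0-fold), TAZ (8.80-fold) and TEAD4 (13.8-fold). Its TEAD4 peak stood at rank 654, within the top 7.78% of the TEAD4 list. Its YAP peak was within the top 21.9% and its TAZ peak within the top 28.8%. Of the sites with YAP, TAZ and TEAD4 but no JUN in the window, this was the highest in each of the 3 lists. JUN had no listed peak at either promoter-proximal site.

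JUN peaks were listed 73.0 kb upstream and 13.9 kb downstream of the start, with none in the 86.9 kb between their summits. The numbers in the JUN peak names skip 11 values over that stretch. If those numbers count every candidate peak, up to 11 JUN candidates there were not listed. The weakest peak of the JUN list had a −log10 p of 54.4. The weakest YAP peak listed had 24.3, the weakest TAZ peak 22.0 and the weakest TEAD4 peak 24.7. The lists differ in length and in part in control, and read depth is unknown. These lowest values therefore do not rank the lists by strictness. JUN signal below its list was not measured here. On the other side of the start, YAP, TAZ and TEAD4 had no listed peak until 103.5 kb downstream. Their names skip 7, 9 and 3 numbers over that stretch. Between 73.0 and 4.4 kb upstream the same 3 lists skip none, so by this reading that stretch held no further candidate.

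**Figure D1:**
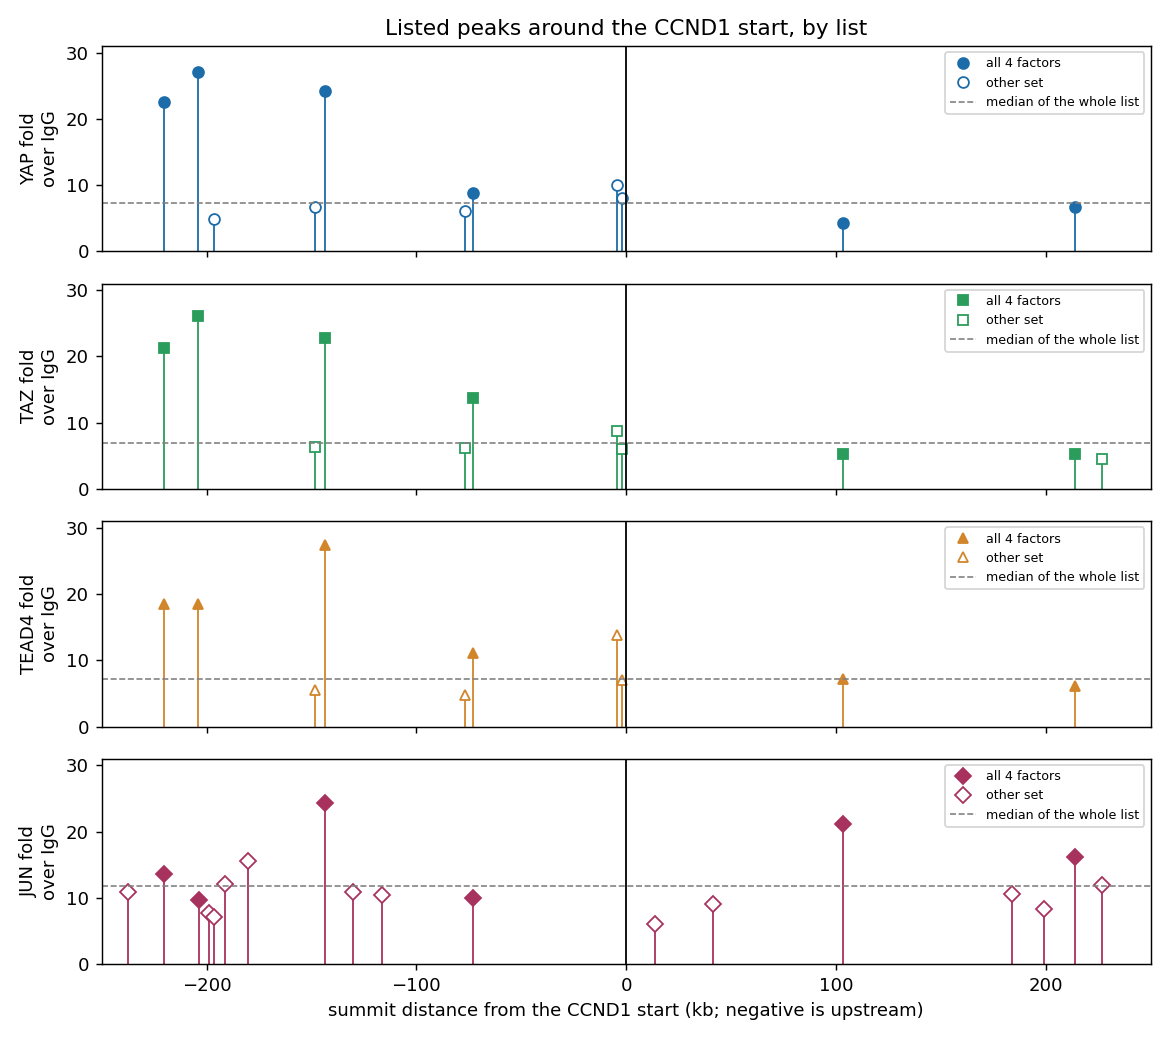
Each panel shows the listed peaks of 1 list by summit distance from the CCND1 start (kb, x axis) and fold enrichment over IgG (y axis). Filled symbols are regions with all 4 factors, open symbols other sets, the dashed line the median of the whole list and the vertical line the start; enrichments are comparable within a panel only. The highest YAP, TAZ and TEAD4 peaks stand between 143.7 and 220.4 kb upstream, and no symbol falls within 1 kb of the start.

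The sites with all 4 factors were distal in this window. How many such regions lie near a gene start genome-wide was not computed. Of 22 regions, 6 held all 4 factors (27.3%, Clopper-Pearson 95% interval 10.7 to 50.2), against a share of 15.2% over all merged regions. The intervals here cover counting error only and treat neighbouring regions as independent. These 6 lay 220.4, 203.9, 143.7 and 73.0 kb upstream and 103.5 and 213.8 kb downstream. In a tiling of the genome by 500 kb, 2306 tiles held at least 1 such region, with a median of 1, and 62 of them (2.69%) held 6 or more. The highest count in a tile was 14. The tiles are a fixed grid, whereas the window was centred on the CCND1 start. The 6 regions include the site at 143.7 kb upstream, for which the locus was chosen. Their count is therefore a description and cannot be weighed against these shares.

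The site that the locus was chosen for lay 143.7 kb upstream (chr11:69311329-69312645). Its TEAD4 peak, 27.4-fold, ranked 15 of 8406 in its list and was the most enriched TEAD4 peak of chromosome 11. Its YAP peak, 24.2-fold, ranked 50 of 7709, and its TAZ peak, 22.8-fold, ranked 78 of 9798. Its JUN peak, 24.3-fold, ranked 549 of 24554 and was the highest JUN peak of the window. All 4 peaks were thus within the top 2.24% of their own lists. By the mean of the 4 percentages the site was number 5 among the 4284 regions with all 4 factors. The JUN peak was 1317 bp wide and extended much further upstream than the others, which were 552 bp (YAP), 542 bp (TAZ) and 598 bp (TEAD4). Under a rule that peaks must cover 50% of each other, JUN was counted apart from the other 3 factors here, although the 4 summits lay within 19 bp.

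The regions most like it were chosen by the smallest mean absolute difference, over the 4 lists, in the percentage of the list at or above a peak. The nearest was on chromosome 15 (chr15:63400049-63400774), at a mean difference of 0.314 percentage points. The other 4 closest lay on chromosome 2 (chr2:227342435-227343790), chromosome 1 (chr1:19335734-19338140), chromosome 14 (chr14:100045753-100046914) and chromosome 7 (chr7:151451009-151452016), with differences of 0.578 to 0.814 points. This is a likeness of ranks over 4 lists and nothing more.

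Further upstream lay a pair of sites with YAP and TAZ in the top 1.17% of their lists and a lower place for JUN. At 203.9 kb upstream (chr11:69251572-69252520) the YAP peak was 27.0-fold and the TAZ peak 26.1-fold, ranks 23 and 29 in their lists. Each was the most enriched peak of its list on chromosome 11, above the site at 143.7 kb. The TEAD4 peak there was 18.5-fold, within the top 2.33% of its list. The JUN peak was 9.66-fold, below the JUN list's median of 11.7 and within the top 72.3% only. By −log10 p in place of enrichment it stood within the top 53.4%.

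At 220.4 kb upstream (chr11:69234960-69235933) the YAP peak was 22.5-fold, the TAZ peak 21.3-fold and the TEAD4 peak 18.6-fold, each within the top 2.22% of its list. The JUN peak was 13.7-fold, within the top 34.4%. The 3 upstream sites therefore shared places near the head of the YAP, TAZ and TEAD4 lists and differed in their JUN place. Genome-wide, 172 of the 4284 regions with all 4 factors had YAP, TAZ and TEAD4 each within the top 5%, and 22 had JUN there as well; none of the 3 upstream sites but that at 143.7 kb belonged to these 22.

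Counted by list, 3 of 11 YAP peaks of the window were in the top 5% of the list, as were 3 of 11 TAZ peaks, 3 of 10 TEAD4 peaks and 1 of 18 JUN peaks. By construction such a call takes 4.99% of the YAP and of the TAZ list, and 5% of the TEAD4 and of the JUN list. Each window count includes the site at 143.7 kb upstream, for which the locus was chosen, and the 1 JUN peak is the one there. The counts are therefore a description and cannot be weighed against these shares. The 3 YAP peaks were also in the top 1% of the list, a set of 78 peaks. Among those 78, 3 had at least 2 others of the set within 100 kb, and they were these 3. With the top 5% of the YAP list, 385 peaks, the count was still 3. In the top 1%, no peak of the 97 TAZ and 84 TEAD4 peaks had such neighbours, and 3 of the 245 JUN peaks did, none of them in the window. In the top 5% the count was 10 of 489 TAZ peaks, 3 of them in the window, and 7 of 420 TEAD4 peaks, again 3 of them in the window. It was 52 of 1227 JUN peaks, 0 of them in the window. This count of close strong peaks was chosen after the values had been seen. For YAP, TAZ and TEAD4 it too includes the site at 143.7 kb upstream.

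The fourth upstream site with all 4 factors, at 73.0 kb (chr11:69382580-69383356), was weaker. Its TAZ peak was 13.8-fold, within the top 7.31% of the list, its TEAD4 peak 11.1-fold (top 16.4%), its YAP peak 8.80-fold (top 31.7%) and its JUN peak 9.95-fold (top 68.7%). The TAZ, TEAD4 and YAP peaks were above the medians of their lists, and the JUN peak was below.

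Downstream of the start the order turned round. At 103.5 kb downstream (chr11:69559196-69559810) the JUN peak was 21.1-fold, within the top 5.95% of the JUN list. The YAP peak there, 4.34-fold, was the lowest YAP peak of the window and ranked 7628 of 7709. TAZ stood at 5.27-fold (top 84.1%) and TEAD4 at 7.18-fold (top 50.5%). Ranked by −log10 p, the YAP peak moved to the top 72.5% and the TAZ peak to the top 45.4%, and JUN stayed in the top 5.60%.

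The site at 213.8 kb downstream (chr11:69669218-69669959) also had JUN in the highest place, at 16.2-fold (top 20.5%), but the order of the other factors differed. YAP was 6.66-fold (top 63.2%), TAZ 5.36-fold (top 82.4%) and TEAD4 6.06-fold (top 70.3%). By enrichment, both downstream sites thus stood high in the JUN list and below the middle of the YAP and TAZ lists. By −log10 p the YAP peak at 213.8 kb moved to the top 47.7% and the TAZ peak to the top 72.9%, so that 1 of the YAP and TAZ peaks at each downstream site was then above the middle of its list.

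The divergence was read as the JUN percentage minus the mean of the YAP, TAZ and TEAD4 percentages. It was 71.4 points at the site 203.9 kb upstream, where 98 of the 4284 regions with all 4 factors (2.29%) had a value as high. It was −71.9 points at the site 103.5 kb downstream, where 40 regions (0.934%) had a value as low. It was 33.0 points at 220.4 kb, 1.69 points at 143.7 kb and 50.2 points at 73.0 kb upstream, and −51.5 points at 213.8 kb downstream. By enrichment, values near both ends of the genome-wide range thus occurred in the same window. The sites at 203.9 kb upstream and 103.5 kb downstream had the highest and lowest values among the window's sites with all 4 factors. Their shares are thus those of picked extremes, for which small shares are likelier, and are a description only. By −log10 p both contrasts were smaller. JUN then stood in the top 53.4% at 203.9 kb upstream, and YAP, TAZ and TEAD4 in the top 72.5%, 45.4% and 45.1% at 103.5 kb downstream. The genome-wide shares by −log10 p were not computed. JUN was called against other IgG libraries than YAP and TAZ, and the raw file names in the labels carry other dates. TEAD4 was, like JUN, called against mouse IgG, and the 2 factors shared the library mouse IgG 3. The control and the date cannot be told apart from the factor here.

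**Figure D2:**
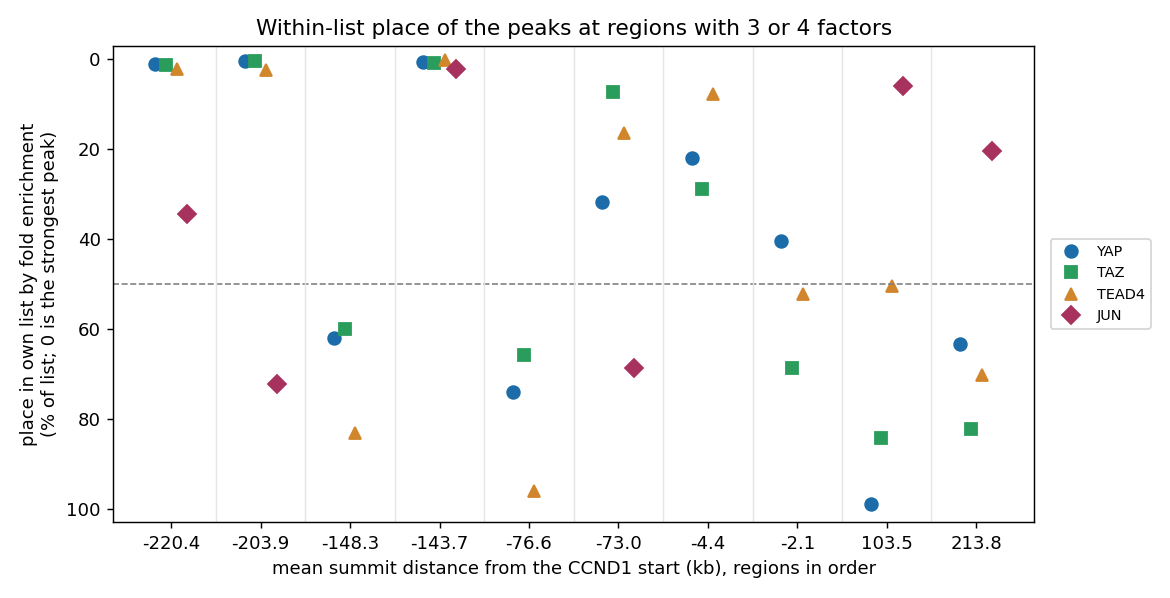
Place of each peak in its own list by fold enrichment (y axis, percentage of the list at or above the peak, 0 at the top), for the 10 regions of the window with 3 or 4 factors in order of distance from the CCND1 start (x axis, kb). Symbols are the 4 lists and the dashed line marks the middle of a list. YAP, TAZ and TEAD4 lie within the top 2.33% at 220.4, 203.9 and 143.7 kb upstream while JUN ranges from 2.24% to 72.3% there, and JUN lies above the others at both downstream sites.

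Regions with YAP, TAZ and TEAD4 but no JUN numbered 4 of 22 (18.2%, 5.19 to 40.3), against 4.3% of all merged regions. Besides the promoter-proximal pair, they lay 148.3 kb upstream (chr11:69307252-69307934) and 76.6 kb upstream (chr11:69379070-69379630). The site at 148.3 kb had YAP at 6.70-fold, TAZ at 6.38-fold and TEAD4 at 5.50-fold, all below the list medians of 7.35, 6.96 and 7.20. The site at 76.6 kb had YAP at 6.11-fold, TAZ at 6.13-fold and TEAD4 at 4.70-fold, the last within the lowest 10% of its list. Each of these weak sites sat beside a stronger one with all 4 factors, at spacings of 4.61 kb and 3.56 kb. The promoter-proximal pair was spaced by 2.32 kb. How often such regions lie this close to others genome-wide was not computed.

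All 10 regions with both YAP and TAZ held TEAD4 (100%, 69.2 to 100), against 77.9% genome-wide. Where peaks had to cover 50% of each other, TEAD4 was counted apart from YAP and TAZ at the site 2.1 kb upstream. JUN was present at 6 of the 10 regions with YAP, TAZ and TEAD4 (60.0%, 26.2 to 87.8), against 78% of 5493 such regions genome-wide. The genome-wide shares lie within both intervals. The remaining peaks of YAP and TAZ were weak: a YAP peak of 4.83-fold shared a region with JUN 196.6 kb upstream, and a TAZ peak of 4.52-fold did so 226.7 kb downstream. Over all merged regions the set of YAP with JUN made up 0.737% and that of TAZ with JUN 3.98%. Neither region held TEAD4, and both coactivator peaks were within the lowest 10% of their lists.

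**Figure D3:**
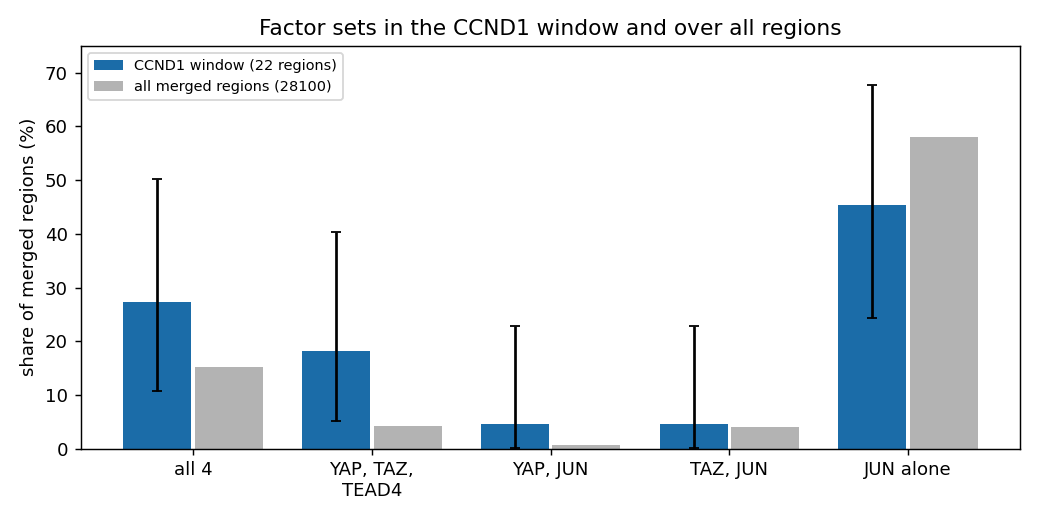
Share of merged regions (y axis, %) by factor set (x axis), for the 22 regions of the CCND1 window (dark bars, with Clopper-Pearson 95% intervals) and all 28100 merged regions (grey bars). The genome-wide share lies within the interval of the window for 4 of the 5 sets. For YAP, TAZ and TEAD4 without JUN, 4.3% lies below the lower bound of 5.19%. This is no test: the interval treats regions as independent, although the promoter-proximal pair of this set lies 2.32 kb apart. Nor does it allow for the choice of the locus for a strong shared site.

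JUN alone accounted for 10 regions (45.5%, 24.4 to 67.8), against 58% of all merged regions. Of these, 6 lay upstream and 4 downstream of the start. Their enrichments ran from 6.01 to 15.6-fold with a median of 10.5, against 10.99 for the 16291 regions of JUN alone in the genome. The strongest was 180.4 kb upstream (15.6-fold, top 23.3% of the JUN list, and top 8.44% by −log10 p). The weakest was the site nearest the start on the downstream side, 13.9 kb away (chr11:69469124-69470318), at 6.01-fold and rank 24439 of 24554. The JUN peaks that shared a region with all 3 other factors had a median of 14.9-fold, close to the 14.2-fold of such peaks genome-wide. At 18 regions with JUN, YAP or TAZ was present at 8 (44.4%, 21.5 to 69.2), against 30.8%. In all, 12 of the 22 regions held YAP or TAZ (54.5%, 32.2 to 75.6), against 36.5%.

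Summits at the shared sites lay close together. At the 6 regions with all 4 factors the largest distance between any 2 summits was 40 bp at 220.4 kb, 49 bp at 203.9 kb, 19 bp at 143.7 kb and 13 bp at 73.0 kb upstream. It was 50 bp at 103.5 kb and 16 bp at 213.8 kb downstream. The median over all 4284 such regions was 48 bp (quartiles 30 and 80), so the 6 values lay around or below it. At the sites 220.4 and 203.9 kb upstream the YAP, TAZ and TEAD4 summits fell within 10 and 14 bp, and the JUN summit lay 39 and 49 bp from that of YAP. At 143.7 kb the JUN summit lay 12 bp from the YAP summit. At the 4 regions without JUN the spread was 6 to 14 bp, against a median of 22 bp over the 1209 regions of that set.

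**Figure D4:**
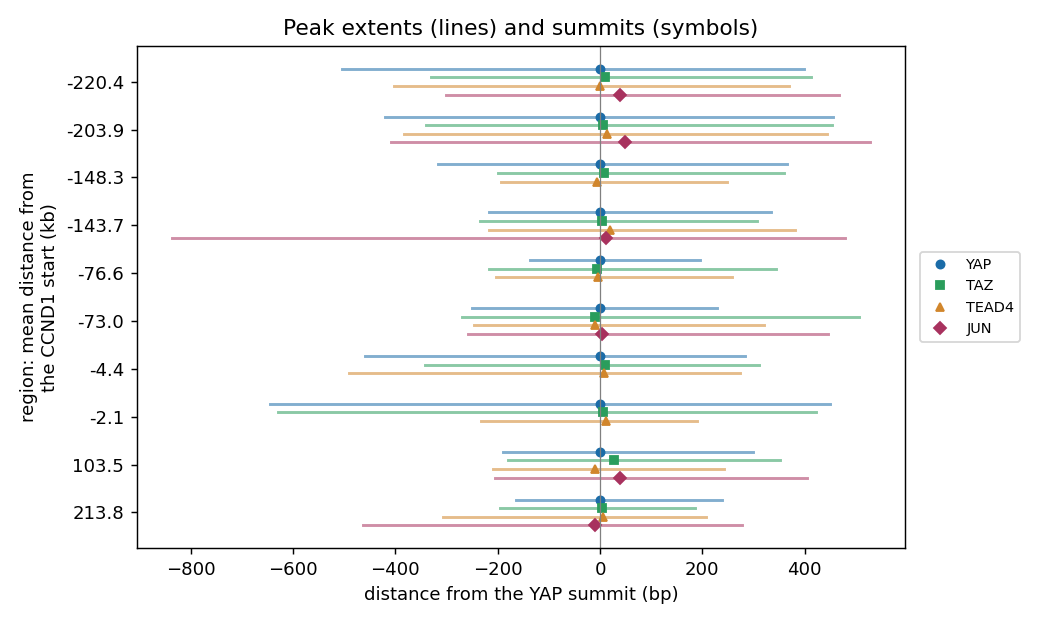
Peak extents (lines) and summits (symbols) of each list in bp from the YAP summit (x axis), for the 10 regions with 3 or 4 factors, named by mean distance from the CCND1 start in kb (y axis). Summits of a region fall within 50 bp of each other, while the JUN peak at 143.7 kb upstream reaches far beyond the other 3 on the left.

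The window was dense in peaks of every list. It held 22.0 YAP peaks per Mb against 2.64 per Mb over the whole list, a ratio of 8.34 (4.16 to 14.9). For TAZ the ratio was 6.56 (3.28 to 11.7), for TEAD4 6.95 (3.34 to 12.8) and for JUN 4.28 (2.54 to 6.77). Against chromosome 11 alone it was 6.74 (YAP), 5.69 (TAZ), 6.29 (TEAD4) and 3.90 (JUN). The choice of the locus around strong shared sites bears on these ratios, and the intervals do not allow for it. Within 500 kb of the start there were 21 YAP, 22 TAZ, 19 TEAD4 and 34 JUN peaks. The window held 11, 11, 10 and 18 of them. Counts thus rose about in step with width, and the density was not particular to the window. Regions with all 4 factors numbered 14 within 500 kb, against 6 in the window. In the window, 15 of the 22 regions lay upstream of the start. So did 9 of 11 YAP peaks, 8 of 11 TAZ peaks, 8 of 10 TEAD4 peaks and 11 of 18 JUN peaks.

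Over all peaks of the window, enrichment lay on both sides of the list medians. The median YAP peak was 8.01-fold against 7.35 for the list, and the median TEAD4 peak 9.14-fold against 7.20. The median TAZ peak was 6.38-fold against 6.96, and the median JUN peak 10.7-fold against 11.7. Above the list median were 6 of 11 YAP peaks, 5 of 11 TAZ peaks, 5 of 10 TEAD4 peaks and 7 of 18 JUN peaks. The peaks farthest from the start that were still counted were JUN peaks 237.3 kb upstream (10.8-fold) and 226.7 kb downstream (11.9-fold). The nearest left outside were JUN peaks 259.6 kb (8.33-fold) and 265.6 kb (12.8-fold) downstream.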

How the data were processed

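The labels describe ChIP from sonicated, cross-linked chromatin. The submitters' processing notes name hg19, MACS2 2.0.10, Bowtie 0.12.7, SAMtools and CASAVA. Peak calling followed the IDR framework, per the labels (irreproducible discovery rate, which measures how consistently peaks rank between replicates). The pooled control was rabbit IgG 1 and 2 for YAP and TAZ, mouse IgG 3 and 4 for TEAD4, and mouse IgG 3 and 5 for JUN. Each deposited list holds, per peak, a fold enrichment over IgG (a ratio), a −log10 p and a summit. The authors' score equalled 10 times that −log10 value, to within 1, at 100% of peaks; neither it nor the q-values were used. TAZ peak names bear the tag YAPTAZ, of unstated meaning, so the YAP and TAZ lists may not be independent. JUN peak names bear another replicate tag, also of unstated meaning. Read depth is unknown, and it sets no stated precision here.

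Peaks were read in Python 3.11.15 (pandas 2.3.3, scipy 1.17.1), joined by overlap, ranked within lists and described, with no test; the code was tested on simulated data. Named were regions with 3 or 4 factors, the promoter, the nearest sites, the best-ranked peaks and the window edges. Other peaks named, the YAP and TAZ peaks without TEAD4 and the strongest and weakest JUN-only sites, were chosen after their values were seen. The members and lists were chosen with earlier results of these data known. Distances between summit and start use 1-based positions. Promoter motifs were not analysed here, and no sequence is printed. Alternatives were other window sizes, joining rules, list lengths, rankings and promoter widths.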

Additional observations from a re-analysis of the deposited data

How the results depend on the processing

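Of 60 alternative values for 24 results, 28 were kept (counts within 1.5 times, shares within the interval) and 32 moved. Window size and list length moved counts by construction. Some kept values could not have moved. The summit distances could not, since each region with all 4 factors held 1 peak per list. Nor could the promoter counts within 500 bp, with none within 1 kb, or the YAP count at equal length, its full list. Within 100 kb of the start there were 4 YAP, 4 TAZ, 4 TEAD4 and 3 JUN peaks in 6 regions, 1 of them with all 4 factors. Within 500 kb there were 21, 22, 19 and 34 peaks in 40 regions, 14 with all 4 factors. With the stronger 50% of each list the counts were 7, 6, 6 and 9 peaks in 12 regions, 3 with all 4 factors; the site at 203.9 kb upstream lost JUN, that at 103.5 kb downstream lost YAP, that at 213.8 kb downstream lost TAZ and TEAD4, and that at 2.1 kb upstream kept YAP alone. The sites with YAP, TAZ and TEAD4 at 148.3 and 76.6 kb upstream were lost altogether with the stronger 50%. With lists of equal length (7709 peaks) JUN had 6 peaks, and the window 13 regions, 4 of them with all 4 factors. The sites at 203.9 and 73.0 kb upstream then lost JUN. Summits within 5 kb of the start gave 2 promoter peaks each for YAP, TAZ and TEAD4 and 0 for JUN. At the site 143.7 kb upstream, ranking by −log10 p put YAP in the top 0.337%, TAZ in the top 0.378%, TEAD4 in the top 0.357% and JUN in the top 2.64%. Ranking within chromosome 11 gave 0.915% for YAP and 1.46% for JUN, and within regions of all 4 factors 0.940% for YAP, 1.51% for TAZ and 4.46% for JUN. Since each factor has 1 list, no replicate could be left out. No paired analysis was possible because replicate values are not part of the lists. The promoter motif search was not run. The limits set by depth are unknown.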
